A study of Homo sapiens with 12 samples.

Results

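The comparison examined here set cells that received siRNA against both EED and RNF2 (siEED+RNF2) against cells that received siRNA against EED alone (siEED), and it asked what depletion of RNF2 added when EED was already low. Its members were the 4 arrays carrying those 2 labels, 2 per group, of 12 arrays in the series, and 18417 genes with a transcript cluster of their own were compared. All arrays were from NCCIT, a human embryonal carcinoma line with features of pluripotent cells. The other arrays were 2 each for siRNF2, siWDR5, siSETD2 and a control non-targeting siRNA (siNTC), and each was hybridized from 250 ng of RNA to an Affymetrix Human Gene ST array. Every cell population was transfected, EED and RNF2 were each targeted with a pool of siRNAs, and all cells were of 1 line. The siEED+RNF2 cells received both pools together with more transfection reagent than a single knockdown, so the effect of the second target and that of the larger amount of siRNA and reagent cannot be told apart. The labels do not say whether the 2 arrays of a group came from separate cultures, so p-values measure only the spread between these arrays, which may be technical.

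EED is a core subunit of Polycomb repressive complex 2 (PRC2), where it binds trimethylated lysine 27 of histone H3 (H3K27me3) and is needed for EZH2 to place that mark. RNF2, also called RING1B, is the E3 ubiquitin ligase of Polycomb repressive complex 1 (PRC1) and places a single ubiquitin on histone H2A. Both complexes are best known for keeping developmental genes such as the HOX clusters silent, and in pluripotent cells many of their targets carry both marks.

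Expression is given as deposited, in log2 units, so a difference of 1 is a 2-fold change. The array medians over all transcript clusters lay between 6.29 and 6.36, and replicate arrays correlated at r = 0.9964 (siEED+RNF2) and 0.997 (siEED), above the 0.9933 to 0.9938 between arrays of the 2 groups. EED, the gene that both groups targeted, measured 7.93 and 7.82 in siEED+RNF2 arrays and 8.25 and 8.14 in siEED arrays, with 9.55 and 9.43 in siNTC arrays. It was thus low in both groups, and the siEED+RNF2 arrays lay below the siEED arrays by 0.32 (SE 0.08, limma, adjusted p = 0.024), a difference under the 1.5-fold threshold. In siRNF2 arrays, which had no EED pool, EED measured 8.85 and 8.80 and was also called lower than in siNTC (-0.66, limma, adjusted p = 5.4e-05). Its means in siWDR5 and siSETD2 were 8.95 and 9.06. The RNF2 transcript was not analysed here. Of 8 genes that mark embryonal carcinoma cells 6 were measured, and the log2 of their summed level was 14.04 and 14.08 in siEED+RNF2 arrays and 14.12 and 14.15 in siEED arrays. Of these 6, L1TD1 was called lower (-0.68) and 0 were called higher, and SOX2, a core pluripotency factor, measured 12.51 and 12.53 in siEED+RNF2 arrays and 12.59 and 12.58 in siEED arrays. Of the markers of endoderm, mesoderm, neuroectoderm, trophoblast and blood cells (12, 11, 11, 12 and 7 measured) 0 were called. Of 14 smooth muscle and fibroblast markers 1 was, ACTG2. The log2 of that list's summed level was 12.4 and 12.4 in siEED+RNF2 arrays and 12.4 and 12.5 in siEED arrays. Over all genes tested 2.75% were called lower and 0.157% higher, so lists this short would hold few calls at those shares. The endoderm, mesoderm and blood cell markers were dim, at 4.10 to 6.05, 5.00 to 6.84 and 3.91 to 5.25. The lowest deposited value was 3.18, so a drop in these markers could be missed.

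Nearly all of the genes called at the fold threshold used here were lower in siEED+RNF2. At a Benjamini-Hochberg adjusted p under 0.05 in limma and a fold of at least 1.5, 507 genes were lower (2.75% of those tested) and 29 were higher (0.157%), so that 94.6% of the 536 calls were lower. Lower genes had a median difference of -0.79 and higher genes of 0.71, while the median over all genes was 0.03. A 2-fold difference was reached by 98 of the lower and 4 of the higher genes. Without the fold threshold the balance was less one-sided, with 1605 genes lower and 925 higher at the same adjusted p. At an unadjusted p under 0.05 in limma and any fold, 2358 were lower and 2631 higher. The arrays of the 2 groups did not overlap for any of the 536, a separation that was also seen downward in 22.1% and upward in 33.6% of all genes tested. The genes next to the threshold were RNPC3 (-0.59) inside and ANKRD18A (-0.58) outside on the lower side, and ETHE1 (0.59) inside and SCARNA10 (0.58) outside on the higher side. In a bulk extract, fewer cells that express a gene and less RNA per cell cannot be told apart.

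**Figure D1:**
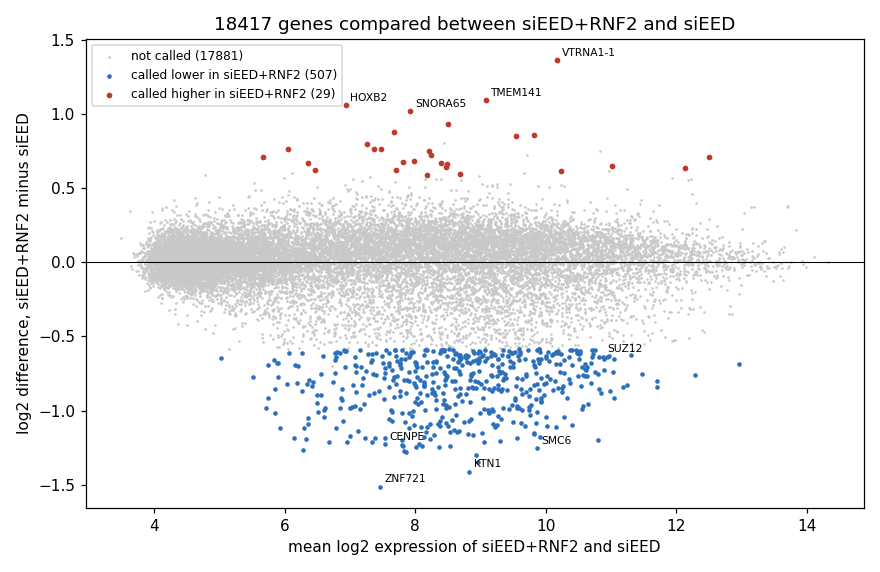
Each point is 1 of 18417 genes, with its mean log2 expression over the siEED+RNF2 and siEED arrays on the x axis and the log2 difference siEED+RNF2 minus siEED on the y axis. The 507 genes called lower (blue) spread down to -1.51 (ZNF721), whereas the 29 called higher (red) are few and reach 1.36 (VTRNA1-1).

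Over the lower set, siEED was close to the other groups and siEED+RNF2 was apart from them. The median level was 8.32 and 8.27 in the siEED+RNF2 arrays, against 9.13 and 9.10 in the siEED arrays, and the other arrays lay near the siEED level with 9.05 and 8.94 in siRNF2, 9.01 and 9.02 in siWDR5, 9.21 and 9.17 in siSETD2 and 9.31 and 9.26 in siNTC. Both siEED+RNF2 arrays were also below each of those 8 arrays for 454 of the 507 genes (89.5%), compared with 1672 (9.08%) of all genes. These counts use the siEED+RNF2 arrays that chose the genes and are a description only. Against siNTC, siEED had a median difference of -0.13 over the 507 genes. The siEED arrays helped to choose these genes as well, so this value too is a description only.

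Genes of the mitotic apparatus were prominent in the lower set, and 3 of the 4 genes listed as markers of this comparison, CENPE, ASPM and EEA1, illustrate its main groups, with the zinc finger gene ZNF721 as the fourth. CENPE encodes the kinesin that carries chromosomes along spindle microtubules to the metaphase plate. It measured 6.79 and 7.05 in siEED+RNF2 arrays and 8.14 and 8.14 in siEED arrays, a difference of -1.23 (SE 0.09, limma, adjusted p = 5.5e-06). ASPM, which acts at spindle poles and is mutated in primary microcephaly, measured 8.51 and 8.39 in siEED+RNF2 arrays and 9.61 and 9.72 in siEED arrays (-1.21, SE 0.07, limma, adjusted p = 2.7e-06). For both genes every siEED+RNF2 array lay more than 1 log2 unit below every siEED array. EEA1, the tether of early endosomes, measured 7.18 and 7.21 in siEED+RNF2 arrays and 8.43 and 8.44 in siEED arrays (-1.24, SE 0.07, limma, adjusted p = 2.6e-06). ZNF721 had the lowest difference of all genes tested, with 6.77 and 6.63 in siEED+RNF2 arrays and 8.19 and 8.23 in siEED arrays (-1.51, SE 0.09, limma, adjusted p = 2.7e-06).

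**Figure D2:**
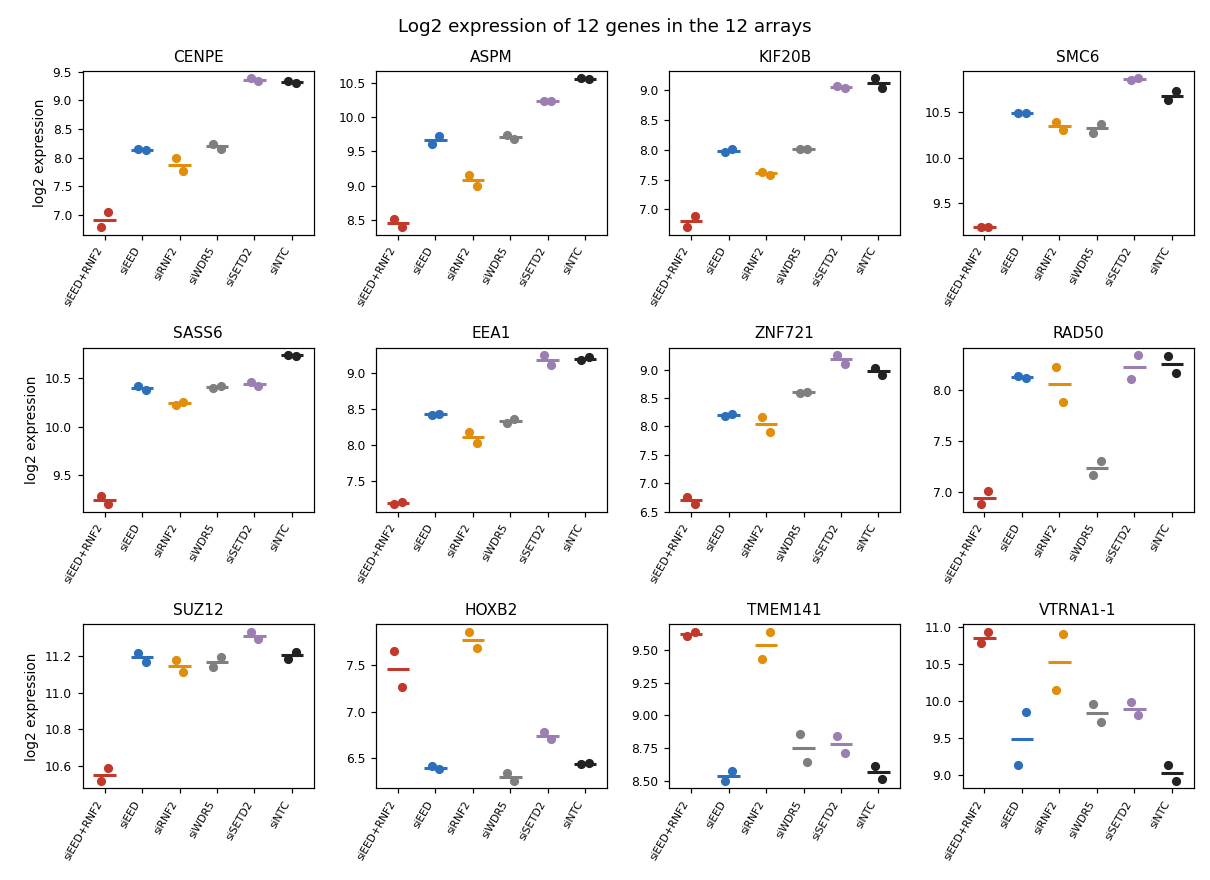
Log2 expression of 12 genes in each of the 12 arrays, with a point per array and a bar at the mean of the 2 arrays of each group. The first 9 genes are lowest in siEED+RNF2, and HOXB2, TMEM141 and VTRNA1-1 are high in the 2 groups given the RNF2 pool and low in siEED and siNTC.

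To show what lies upstream of genes that moved together, the 180 bases before the annotated start are given for 4 lower genes and for TMEM141 and GDF15, which were higher (RefSeq, GRCh38.p14, coding strand, 5′ to 3′). Capitals mark the CCAAT box (CCAAT, or ATTGG on the opposite strand) and the cell cycle homology region (TTTGAA, or TTCAAA on the opposite strand), 2 motifs that are common before genes expressed late in the cell cycle.
ASPM (chr1:197146670-197146849, minus strand): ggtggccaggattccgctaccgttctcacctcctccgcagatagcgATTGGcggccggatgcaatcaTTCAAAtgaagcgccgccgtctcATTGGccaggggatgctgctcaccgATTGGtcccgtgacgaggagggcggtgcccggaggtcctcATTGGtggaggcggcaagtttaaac
KIF20B (chr10:89701410-89701589, plus strand): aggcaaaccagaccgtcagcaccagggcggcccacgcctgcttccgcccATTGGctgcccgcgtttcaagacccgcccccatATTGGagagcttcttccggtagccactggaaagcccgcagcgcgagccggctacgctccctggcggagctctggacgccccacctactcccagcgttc
CENPE (chr4:103198344-103198523, minus strand): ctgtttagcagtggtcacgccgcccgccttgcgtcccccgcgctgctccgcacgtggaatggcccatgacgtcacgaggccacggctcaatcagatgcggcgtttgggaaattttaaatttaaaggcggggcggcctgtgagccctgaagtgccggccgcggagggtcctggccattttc
EEA1 (chr12:92929296-92929475, minus strand): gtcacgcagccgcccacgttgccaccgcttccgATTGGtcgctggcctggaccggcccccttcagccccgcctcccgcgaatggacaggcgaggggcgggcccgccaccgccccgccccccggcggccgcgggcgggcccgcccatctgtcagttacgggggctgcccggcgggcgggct
TMEM141 (chr9:136791164-136791343, plus strand): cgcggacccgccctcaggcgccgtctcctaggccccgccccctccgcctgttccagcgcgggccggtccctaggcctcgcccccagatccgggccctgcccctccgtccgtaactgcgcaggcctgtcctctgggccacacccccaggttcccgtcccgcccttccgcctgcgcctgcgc
GDF15 (chr19:18385978-18386157, plus strand): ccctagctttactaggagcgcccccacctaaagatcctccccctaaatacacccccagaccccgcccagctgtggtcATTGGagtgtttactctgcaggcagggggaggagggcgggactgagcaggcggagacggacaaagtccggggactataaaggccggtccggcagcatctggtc
The ASPM stretch held 4 CCAAT boxes and 1 cell cycle homology region, KIF20B held 2 CCAAT boxes and EEA1 and GDF15 held 1 each, while CENPE and TMEM141 held 0 of either motif. Over the 250 bases before the start, a CCAAT box on either strand was found for 42.3% of the 433 lower genes with a promoter in the table, against 34.4% of the 14237 promoters of all genes tested and 30.8% of the 13 higher genes with one. The cell cycle homology region was found in 15.7% of the lower promoters and 10.6% of all promoters, and TATAAA on either strand in 5.77% and 8.59%. Within lists the shares went both ways. A CCAAT box preceded 50% of the lower kinetochore genes and 53.6% of those not called, 11.1% and 53.8% in the cohesin and condensin list, and 64.5% and 42.6% among zinc finger genes. The cell cycle homology region was less common before lower members than uncalled ones in the kinetochore (12.5% and 17.9%) and chromatin (0% and 3.1%) lists. It was more common before lower members in the spindle (75% and 37.5%), kinesin (50% and 8%) and cohesin and condensin (33.3% and 7.69%) lists. The same held for double-strand break repair (33.3% and 8.33%), Golgi tethers (18.2% and 0%), centrosome (14.3% and 8.82%) and zinc finger genes (12.9% and 8.46%). Several shares rest on few genes, such as 8 lower kinesins. Promoter GC content was alike, with a median of 62.4% over the lower genes and 62.8% over all genes. A match describes the letters only.

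The kinetochore is the structure that attaches chromosomes to the spindle. There, 10 of 44 genes were lower (22.7%, beside 2.75% of all genes) and 0 higher (list median -0.14). They included the centromere protein CENPC (-1.18), the cohesin protector SGO2 (-1.18) and the outer kinetochore scaffold KNL1 (-1.08), and also CENPF, NUF2, TTK, NDC80, CENPK and CENPQ. CENPC measured 6.75 and 6.53 in siEED+RNF2 arrays and 7.88 and 7.76 in siEED arrays (limma, adjusted p = 3.2e-06). The checkpoint genes MAD2L1 (-0.21), BUB1B (-0.08) and BUB3 (0.23) were not called, so the list did not move as 1 block. Of 39 genes of spindle assembly and cytokinesis 8 were lower (20.5%) and 0 higher, and the list median was 0.03. Besides ASPM these were HMMR (-1.08), HAUS6, CKAP2 (-0.86), ECT2 (-0.82), DLGAP5 (-0.73), ANLN (-0.62) and CKAP2L. HMMR, a microtubule-binding protein of the spindle, measured 9.29 and 9.32 in siEED+RNF2 arrays and 10.43 and 10.34 in siEED arrays (limma, adjusted p = 4.9e-06).

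Of 32 mitotic cyclins, kinases and subunits of the anaphase-promoting complex 0 were called in either direction, beside 2.75% lower and 0.157% higher over all genes. Their differences ran from -0.33 (ANAPC4) to 0.32 (PTTG1) with a median of 0.10. CDK1, the kinase that drives entry into mitosis, measured 9.73 and 9.39 in siEED+RNF2 arrays and 9.71 and 9.73 in siEED arrays, groups that overlap. Its cyclin CCNB1 measured 11.28 and 11.20 in siEED+RNF2 arrays and 11.02 and 10.94 in siEED arrays (0.26, limma, adjusted p = 0.029, under the fold threshold). PLK1 (0.21) and AURKB (0.24) likewise stayed under the fold threshold. Among 50 DNA replication genes 2 were lower, the clamp loader subunit RFC1 (-0.65) and the topoisomerase TOP2A (-0.65), and the median was 0.09. PCNA, the replication clamp, measured 10.21 and 10.11 in siEED+RNF2 arrays and 10.14 and 10.14 in siEED arrays. No p53 target (0 of 22), G1 cyclin or CDK inhibitor (0 of 21) or replication-dependent histone gene (0 of 57) was called.

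Kinesins, the motors that move along microtubules, had 8 lower (19.5%, beside 2.75% of all genes) and 0 higher of 41 (median 0.01). The mitotic kinesin KIF20B measured 6.70 and 6.89 in siEED+RNF2 arrays and 7.96 and 8.01 in siEED arrays (-1.18, SE 0.08, limma, adjusted p = 3e-06). KIF14 (-1.07), KIF15 (-0.99), KIF11 (-0.70) and KIF18A also act in dividing cells. KIF5B (-1.10), KIF3A and KIF21A, which carry cargo outside mitosis, were lower as well, so the kinesins that fell were not those of mitosis alone.

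Cohesin holds sister chromatids together and condensin compacts them. The list of their genes and regulators also holds SMC5, SMC6 and SMCHD1, related SMC proteins that belong to neither complex. In it 10 of 26 were lower (38.5%, beside 2.75% of all genes) and 0 higher, and the median was -0.43. ESCO1, the acetyltransferase that stabilizes cohesin on chromatin, measured 8.30 and 8.27 in siEED+RNF2 arrays and 9.66 and 9.60 in siEED arrays (-1.34, SE 0.08, limma, adjusted p = 2.7e-06). The coiled-coil ATPase SMC6 measured 9.23 and 9.24 in siEED+RNF2 arrays and 10.49 and 10.49 in siEED arrays (-1.25, SE 0.06, limma, adjusted p = 2.1e-06). SMC3 (-1.18), SMC2 (-1.15), SMC4 (-1.10) and SMC5 (-0.86) were also lower, whereas SMC1A, the partner of SMC3 in cohesin, was not called (0.01). STAG2 (-0.84), SMCHD1 (-0.78), the cohesin loader NIPBL (-0.77) and NCAPG were the others. RAD21, the cohesin subunit that separase cleaves, was not called (-0.32).

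The list of centrosome and centriole genes had the largest number of lower members apart from the zinc finger genes, 22 of 60 with 0 higher, and a median of -0.46. That was 36.7% lower, beside 2.75% of all genes. SASS6, which builds the cartwheel of a new centriole, measured 9.29 and 9.20 in siEED+RNF2 arrays and 10.42 and 10.38 in siEED arrays (-1.15, SE 0.06, limma, adjusted p = 2.1e-06). CEP162 (-1.21), CEP135 (-1.08), AKAP9 (-1.04), CEP152 (-1.01), PCM1 (-0.98) and CEP290 (-0.95) are further structural proteins of centrioles, pericentriolar material or the ciliary base. The kinase ROCK2 was lower by this test too (-1.08), as was its relative ROCK1 (-1.30), which is in none of the lists, has a partial pseudogene copy that its probes may also read, and measured 8.22 and 8.35 in siEED+RNF2 arrays and 9.63 and 9.53 in siEED arrays.

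Outside mitosis, 13 of 31 coiled-coil tethers of the Golgi and endosomes were lower (41.9%, beside 2.75% of all genes) and 0 higher (median -0.40). Beside EEA1 they included CCDC186 (-1.21), TMF1 (-1.17), GCC2 (-1.07), GOLGA4 (-0.95) and GOLGB1 (-0.82), proteins that span the gap between vesicles and Golgi membranes. KTN1, a coiled-coil protein of the endoplasmic reticulum, had the second lowest difference of all genes and measured 8.03 and 8.20 in siEED+RNF2 arrays and 9.55 and 9.51 in siEED arrays (-1.41, SE 0.09, limma, adjusted p = 2.7e-06). Of 24 lysosomal genes 0 were called. At the nuclear pore, 2 of 27 were lower (7.41%), TPR (-0.99) and RANBP2, which form filaments on the nuclear and cytoplasmic face of the pore.

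Of 38 genes for repair of DNA double-strand breaks 11 were lower (28.9%, beside 2.75% of all genes) and 0 higher (median -0.18). RAD50, NBN and MRE11, the 3 subunits of the complex that senses and trims broken ends, were all lower. RAD50 measured 6.88 and 7.01 in siEED+RNF2 arrays and 8.14 and 8.11 in siEED arrays (-1.18, SE 0.12, limma, adjusted p = 3e-05), and NBN and MRE11 differed by -0.80 and -0.77. The siWDR5 arrays, at a mean of 7.24, were close to siEED+RNF2 for RAD50. FANCM (-1.12), RIF1 (-1.11), LIG4 (-0.87), ATM (-0.73), WRN (-0.62), BRCA1 (-0.60), XRCC4 (-0.60) and BRIP1 made up the rest.

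**Figure D3:**
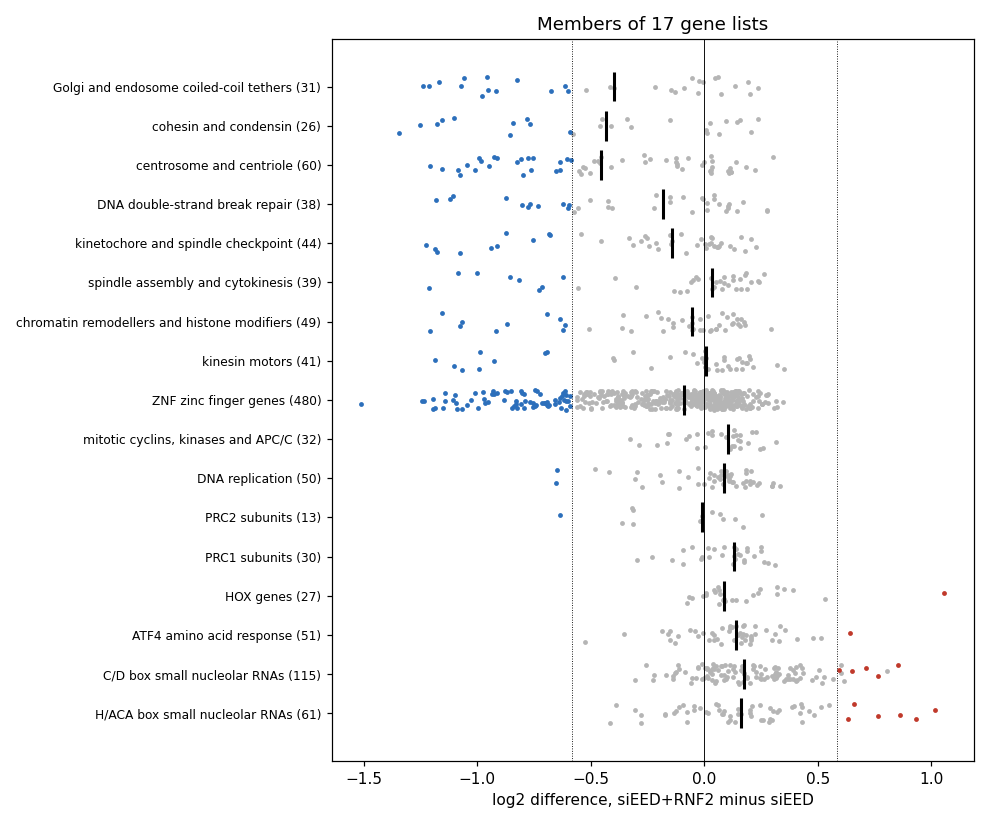
The log2 difference siEED+RNF2 minus siEED (x axis) of each member of 17 gene lists, with the number of members in parentheses, a black bar at the list median, dotted lines at a 1.5-fold change, blue for genes called lower and red for genes called higher. Lower genes form a separate tail in several lists, from Golgi tethers to zinc finger genes, whereas the 32 members of the list of mitotic cyclins, kinases and APC/C stay between the dotted lines.

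Of 13 PRC2 genes 1 was lower and 0 higher, beside 2.75% lower over all genes, and the lower gene was SUZ12, the core subunit that PRC2 cannot assemble without. It measured 10.52 and 10.59 in siEED+RNF2 arrays and 11.22 and 11.17 in siEED arrays (-0.64, SE 0.06, limma, adjusted p = 2.7e-05), against 11.17 and 11.11 in siRNF2 and 11.18 and 11.22 in siNTC arrays. Both siEED+RNF2 arrays of SUZ12 were therefore below all arrays of the other 3 groups. The catalytic subunit EZH2 measured 10.80 and 10.85 in siEED+RNF2 arrays and 10.80 and 10.78 in siEED arrays. Of 30 PRC1 genes 0 were called, with differences between -0.29 (PHC3) and 0.31 (BCORL1). RING1, the paralogue of RNF2, measured 7.81 and 7.71 in siEED+RNF2 arrays and 7.47 and 7.67 in siEED arrays (0.19, limma, adjusted p = 0.16).

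Other chromatin genes were lower in 10 of 49 (20.4%, beside 2.75% of all genes) and higher in 0 (median -0.05). ATRX, a remodeller of heterochromatin, measured 6.57 and 6.88 in siEED+RNF2 arrays and 7.95 and 7.93 in siEED arrays (-1.21, SE 0.10, limma, adjusted p = 1.2e-05). CHD1 (-1.15), CHD9 (-1.07), BAZ2B (-1.07), BPTF (-0.69) and SMARCA5 (-0.64) are likewise remodellers or readers of chromatin. Of 20 MLL/COMPASS genes 1 was lower (5%, beside 2.75% of all genes). It was PSIP1 (-0.59), which fell below the fold threshold with quantile normalization (-0.57). None of 15 genes of the DNA methylation machinery was called (0 higher, 0 lower).

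Most zinc finger genes of the ZNF type encode DNA-binding proteins with tandem C2H2 fingers. Of 480 such genes 71 were lower (14.8%, beside 2.75% of all genes) and 0 higher, with a median of -0.09. Beside ZNF721 the lowest were ZNF678 (-1.24), ZNF682 (-1.23) and ZNF675 (-1.20). ZNF675 was abundant, at 10.24 and 10.18 in siEED+RNF2 arrays and 11.45 and 11.35 in siEED arrays (limma, adjusted p = 2.7e-05). On chromosome 19, which carries long runs of such genes, 39 of 233 were lower (16.7%), against 32 of 247 (13.0%) elsewhere. All 39 genes that were lower on chromosome 19 were ZNF genes, although 1308 genes of that chromosome were tested. The chromosome as a whole had 2.98% lower, near the 2.75% of all genes. Within it, 1 run of neighbouring genes from ZNF101 to ZNF100 had 12 of 20 lower (median -0.64), and the run from ZNF766 to ZNF702P had 6 of 18. The run from ZFP14 to ZNF573 had 5 of 27 lower, and the run from ZNF577 to ZNF836 had 2 of 10. In 5 other runs 0 of 8 to 17 genes were lower. Members of such runs resemble each other in sequence, so signal of 1 gene can be read by the probes of another, and single ZNF values are uncertain for that reason.

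The lower genes were long. Their median span from start to end in the RefSeq annotation was 63.3 kb (506 genes), against 24.5 kb over all genes tested and 1.97 kb for the 29 higher genes. Of those 29 only 14 were protein coding, against 493 of the 507 lower genes and 16899 of all 18417. Another 12 of the 29 were small nucleolar or Cajal body RNAs, and the lower quartile of span was 0.132 kb. The 1.97 kb therefore does not describe protein-coding genes alone. When all genes were ordered by span and divided into 10 bins of equal number, the share called lower was 0.870%, 0.109%, 0.326%, 0.979%, 1.74%, 3.37%, 3.92%, 5.98%, 6.15% and 4.08% from the shortest to the longest bin. It was thus highest in the bins just below the longest. Across 18386 genes, which are not independent replicates, span and the difference siEED+RNF2 minus siEED had a Spearman rho of -0.19, and the median difference moved only between 0.06 and -0.02 over the bins. Span and siRNF2 minus siNTC had a rho of 0.07. Within lists the members called lower were also the longer ones: in the kinetochore list they had a median span of 59.7 kb against 25.6 kb for members not called, and in the double-strand break repair list 124.5 kb against 43.0 kb. The part of span in the list counts was not tested.

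**Figure D4:**
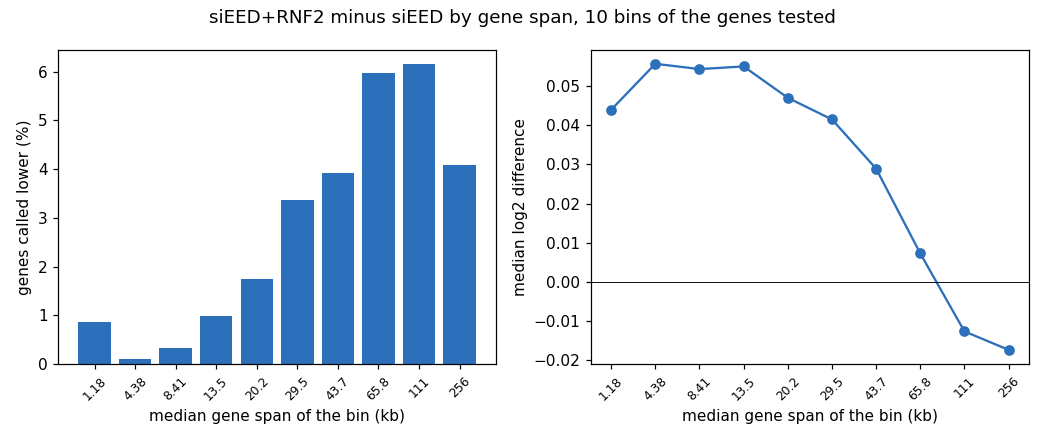
Genes tested were divided into 10 bins by span, and the x axis gives the median span of each bin in kb. The left panel shows the percentage called lower in siEED+RNF2, highest at 6.15% in the bin next to the longest, and the right panel shows the median log2 difference siEED+RNF2 minus siEED, which stays between 0.06 and -0.02.

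Of the 29 higher genes, 12 were small nucleolar or Cajal body RNAs, which guide the chemical modification of ribosomal and spliceosomal RNA, and 0 of the 507 lower genes were. Among 115 C/D box small nucleolar RNAs 5 were higher and 0 lower (median 0.18), and among 61 of the H/ACA box type 6 were higher and 0 lower (median 0.16). Those shares, 4.35% and 9.84%, stood beside 0.157% higher over all genes. SNORA65 measured 8.38 and 8.48 in siEED+RNF2 arrays and 7.19 and 7.63 in siEED arrays (1.02, SE 0.17, limma, adjusted p = 0.0017), and 8.29 and 8.34 in siNTC arrays. SNORA80E, at 9.03 and 8.91 in siEED+RNF2 arrays and 7.93 and 8.15 in siEED arrays (0.93, limma, adjusted p = 0.00062), measured 9.32 and 9.33 in siNTC arrays. For both, siEED+RNF2 was nearer to siNTC than siEED was. The siWDR5 arrays were low too, with a mean of 6.93 for SNORA65 and 8.19 for SNORA80E. For SNORA65, SNORA80E, SNORD82, SNORD105, SNORD41, SNORD32A, SNORA20 and SNORA49 siEED replicate 1 was the lower of the siEED pair. In siRNF2, replicate 1 was likewise the lower array for each of them, as for SNORD82 at 9.39 and 10.08. The count depended on single arrays and on the test. It was 4 of 17 higher genes without siEED replicate 1, 22 of 55 without siEED replicate 2 and 5 of 32 without siEED+RNF2 replicate 2, and it was 4 of 20 with no moderation of the variance and 7 of 23 at an adjusted p under 0.01. The small nuclear RNA RNU4-2 of the spliceosome was higher too (0.80).

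VTRNA1-1, the vault RNA, had the highest difference, with 10.78 and 10.93 in siEED+RNF2 arrays and 9.14 and 9.85 in siEED arrays (1.36, SE 0.24, limma, adjusted p = 0.0023). Its siRNF2 arrays measured 10.15 and 10.90 and its siNTC arrays 9.14 and 8.92. TMEM141, a small membrane protein, measured 9.61 and 9.64 in siEED+RNF2 arrays and 8.50 and 8.57 in siEED arrays (1.09, SE 0.09, limma, adjusted p = 9.7e-06). It was as high in siRNF2 (9.44 and 9.64) and as low in siNTC (8.61 and 8.52), so it was high in the 4 arrays that received the RNF2 pool. The difference siEED+RNF2 minus siRNF2 for TMEM141 was 0.09, with a 95% interval of -0.11 to 0.28. MVB12A, a subunit of the ESCRT-I sorting complex, had the same order, with 8.70 and 8.75 in siEED+RNF2, 7.96 and 8.15 in siEED, 8.77 and 8.68 in siRNF2, against 7.91 and 7.87 in siNTC arrays. Without siEED replicate 1 its difference was 0.57, under the fold threshold.

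HOX genes pattern the body axis and are classical Polycomb targets. Of 27 measured, HOXB2 was the 1 gene called (3.70% higher, beside 0.157% of all genes). It measured 7.65 and 7.26 in siEED+RNF2 arrays and 6.42 and 6.39 in siEED arrays (1.06, SE 0.11, limma, adjusted p = 4e-05), and 7.86 and 7.69 in siRNF2 and 6.44 and 6.45 in siNTC arrays. Like TMEM141 it was high in the 4 arrays that received the RNF2 pool. Its siEED+RNF2 mean was below siRNF2 by 0.32 (unadjusted 95% interval of the difference -0.55 to -0.08), a difference not called (limma, adjusted p = 0.065). Its neighbour HOXB3, at 5.83 and 5.77 in siEED+RNF2 arrays and 5.35 and 5.19 in siEED arrays (0.53, limma, adjusted p = 0.00039), stayed just under the fold threshold, and HOXB4 (0.07) and HOXB5 (-0.08) lay close to 0. Of 57 other developmental transcription factors 0 were called, beside 2.75% lower and 0.157% higher over all genes. Their differences ran from -0.20 (IRX2) to 0.56 (LHX2). OLIG3, a transcription factor of the dorsal neural tube that is in none of the lists, was higher, at 8.11 and 8.11 in siEED+RNF2 arrays and 7.07 and 7.39 in siEED arrays (0.88, limma, adjusted p = 0.00012). OLIG3 was at 7.41 and 7.52 in siRNF2 and 7.03 and 6.84 in siNTC arrays, so siEED+RNF2 was its highest group of these 4.

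The remaining named higher genes were MAPRE3 (0.76), which binds growing microtubule ends, the Ras association domain gene RASSF4 (0.75), the neuritin gene NRN1 (0.71), S100A13 (0.68), the fibronectin receptor subunit ITGA5 (0.67), IGLON5 (0.67), the proteoglycan BGN (0.62) and the neuropeptide GAL (0.62). GDF15, a secreted stress cytokine, measured 8.84 and 8.74 in siEED+RNF2 arrays and 8.07 and 8.22 in siEED arrays (0.64, limma, adjusted p = 0.00033). It was the 1 gene called among 51 of the ATF4 amino acid response (1.96% higher, beside 0.157% of all genes). GDF15 was not called without siEED replicate 1 (0.57). The call was likewise lost for NRN1 without siEED replicate 2 (0.51), for GAL without siEED replicate 1 (0.57) and for BGN without siEED+RNF2 replicate 1 (0.54). IGLON5 lost it without siEED replicate 1 (0.51), without siEED+RNF2 replicate 1 (0.62) and without siEED+RNF2 replicate 2 (0.72), and kept it only without siEED replicate 2 (0.83).

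Lists with 0 genes called in either direction were the chaperones of the endoplasmic reticulum (25 genes), cholesterol synthesis (19), glycolysis and hypoxia (29), interferon-stimulated genes (36), ERK targets (20), imprinted genes (24), splicing factors of the SR and hnRNP type (30), claudins and tight junctions (17), cytosolic (61) and mitochondrial (72) ribosomal proteins and the proteasome (36), beside the 2.75% lower and 0.157% higher over all genes. Single genes were lower in 4 other lists. L1TD1, an RNA-binding protein of pluripotent cells, differed by -0.68 and was the 1 of 23 pluripotency genes called. The germ cell gene TEX15 (-1.18, 1 of 28), the complex I subunit NDUFA5 (-0.78, 1 of 33) and the smooth muscle actin ACTG2 (-0.85, 1 of 14) were the others.

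Whether the RNF2 pool had the same effect without the EED pool was asked by setting siRNF2 against siNTC, 4 arrays that share none with the comparison above. The siNTC arrays are marked as a re-analysis, and whether they were run with the others was not tested. EED itself was lower in siRNF2 than in siNTC (-0.66), so siRNF2 cells were not at the siNTC level of EED RNA. There 1174 genes were higher (6.37%) and 701 lower (3.81%). Of the 507 genes lower in siEED+RNF2, 94 were also lower in siRNF2 (18.5% of the 507 and 13.4% of the 701), 19 were higher in siRNF2 and 394 were not called. Of the 29 higher genes, 15 were also higher in siRNF2 (51.7% of the 29 and 1.28% of the 1174), 1 was lower and 13 were not called. In the other direction, 1140 of the genes higher and 606 of those lower in siRNF2 were not called between siEED+RNF2 and siEED. Across all genes, which are not independent replicates, the 2 differences had r = 0.23 and rho = 0.21. The shares depended on scaling, since subtracting from each array its own median gene value gave 61.8% lower among the calls of siRNF2 minus siNTC, compared with 37.4% as deposited.

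The difference between the 2 effects, siEED+RNF2 minus siEED less siRNF2 minus siNTC, is called the interaction here, and a negative value means a lower level in siEED+RNF2 than the 2 single knockdowns would add up to on the log2 scale. In limma it was called negative for 1369 genes (7.43%) and positive for 717 (3.89%), a split of 65.6% negative that was 38.8% after the same subtraction, which raised the median interaction over all genes to 0.17 from 0.04. Of the 507 lower genes, 247 had a negative interaction, 1 a positive one and 259 were not called. The interaction contains the difference that chose these genes, so a lean towards negative values was built in. The counts here are a description only. After that subtraction, 172 of the 507 were negative. Of the 94 genes lower in both comparisons 93 had no interaction called, and of the 15 higher in both 11 had none. Genes called with the same sign in both are likewise less apt to have an interaction called, since 1 difference is subtracted from the other.

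Mitotic genes were found on both sides. CENPE was lower by 1.44 in siRNF2 (7.99 and 7.77) than in siNTC (9.35 and 9.30), and its interaction was 0.22 (SE 0.13, limma, adjusted p = 0.24). ASPM (-1.48), KIF20B (-1.51), KNL1, EEA1 (-1.09) and FAM111B (-1.79) were also lower in siRNF2 than in siNTC with no interaction called. Each of these 6 genes was thus lower with the RNF2 pool both with and without the EED pool. All 6 were also called lower in siEED than in siNTC (CENPE -1.18, ASPM -0.90, KIF20B -1.13, KNL1 -0.72, EEA1 -0.77, FAM111B -0.98). Their siWDR5 means lay below the siNTC means too, as for CENPE at 8.20 against 9.32. Lower levels than in siNTC were therefore not particular to the RNF2 pool. ESCO1, by contrast, measured 9.61 and 9.42 in siRNF2 and 9.58 and 9.54 in siNTC arrays, a difference of -0.05, and its interaction was -1.30 (SE 0.11, limma, adjusted p = 1.2e-05). N4BP2 (-1.40), ZNF678 (-1.31), ZBTB41 (-1.18), CEP135 (-1.16) and LIG4 (-1.11) had interactions of that kind, while their differences between siRNF2 and siNTC were 0.15, 0.07, -0.05, 0.08 and 0.23. SMC6, SMC3, RAD50 and CHD1 also had negative interactions, of -0.92, -0.87, -0.99 and -0.96. SUZ12 differed by -0.06 between siRNF2 and siNTC, and its interaction of -0.58 missed the fold threshold.

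**Figure D5:**
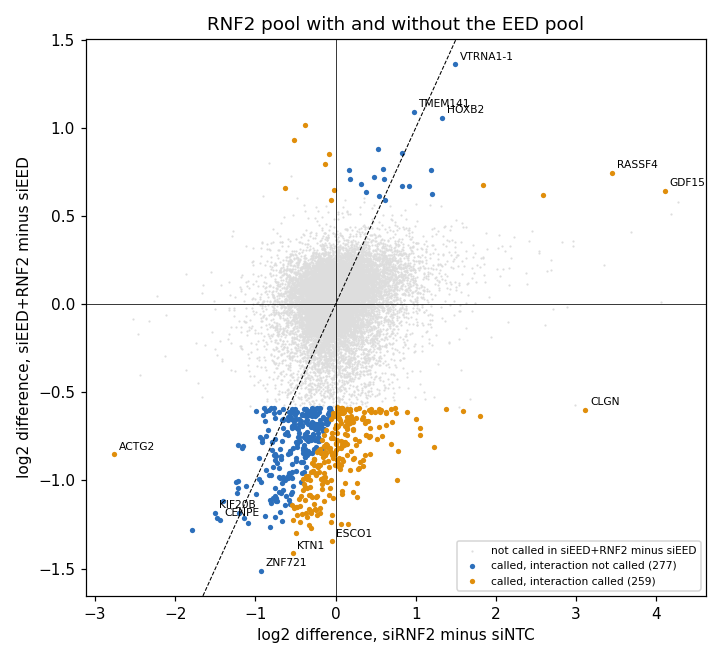
Each point is a gene, with the log2 difference siRNF2 minus siNTC on the x axis and siEED+RNF2 minus siEED on the y axis, and the dashed line marks equal differences. Of 536 called genes 277 (blue) have no interaction called and 259 (orange) have one, and most of the orange genes lie near 0 on the x axis and below 0 on the y axis.

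Among the genes called between siEED+RNF2 and siEED, the most negative interactions belonged to genes that were higher in siRNF2 than in siNTC. That difference is subtracted in the interaction, so a large rise in siRNF2 makes it negative unless siEED+RNF2 minus siEED is as large. GDF15 measured 9.62 and 9.68 in siRNF2 and 5.56 and 5.53 in siNTC arrays (4.11), so the further rise of 0.64 in siEED+RNF2 over siEED gave an interaction of -3.46. RASSF4 (3.45 in siRNF2 minus siNTC, interaction -2.71) and ITGA5 (1.83, interaction -1.16) had the same pattern, and siEED was itself called higher than siNTC for all 3. CLGN, a chaperone of the endoplasmic reticulum in the testis, measured 6.55 and 6.71 in siEED+RNF2, 7.13 and 7.32 in siEED, 8.39 and 8.33 in siRNF2, against 5.17 and 5.32 in siNTC arrays. It was thus higher in siRNF2 than in siNTC and lower in siEED+RNF2 than in siEED, with an interaction of -3.72, as were ZC3H6 (-2.44) and GREB1L (-2.19). For siEED+RNF2 minus siEED the call was lost for CLGN without siEED+RNF2 replicate 1 (-0.52) or siEED replicate 2 (-0.51), for ZC3H6 without siEED+RNF2 replicate 2 (-0.46) and for GREB1L without siEED+RNF2 replicate 2 (-0.52) or siEED replicate 2 (-0.57). ACTG2 ran the other way, at 7.71 and 7.94 in siEED+RNF2, 8.64 and 8.70 in siEED, 6.33 and 6.49 in siRNF2, against 9.25 and 9.09 in siNTC arrays, with an interaction of 1.91. Whole lists showed it too: 39 of 51 ATF4 response genes were higher in siRNF2 than in siNTC (median 1.14) and 40 had a negative interaction, while 11 of 19 cholesterol genes were lower in siRNF2 (median -0.95) and 12 had a positive interaction. Over all genes 6.37% were higher and 3.81% lower in siRNF2, and 7.43% had a negative and 3.89% a positive interaction.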

How the data were processed

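Expression was measured in NCCIT cells on 12 arrays, with groups and replicate numbers taken from the submitters' labels. The authors deposited log2 values for 33297 transcript clusters (range 3.18 to 15.0), with every value column used (0 not used). For these values the notes of the submitters list GCRMA and Partek without a version or setting, so background correction and normalization between arrays precede every value and set the balance of higher and lower genes. The number of arrays limits the precision.

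Clusters were named through the platform annotation and RefSeq (GRCh38.p14). Of these, 12083 had no gene listed, 1754 had several and 19460 had 1 (19429 matched by gene number). The brightest of several clusters stood for a gene (769 genes), which left 18417 genes, with no filter on dim genes. Promoter windows were found in the RefSeq table for 14237 genes.

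Group means were estimated from the 12 arrays together by limma 3.58.1 (R 4.3.3; 6 residual degrees of freedom, empirical Bayes moderation), with contrasts siEED+RNF2 minus siEED, siRNF2 minus siNTC and their difference (interaction). Tests were two-sided. A gene was called when its p, adjusted by Benjamini-Hochberg over all genes, was under 0.05 and its fold at least 1.5. The fit was tested on simulated data. Plots were made in Python 3.11.15 with matplotlib 3.10.9.

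The members and the 45 gene lists were chosen with earlier results of these data known, so a list count is no independent evidence. The genes named were the siRNA targets, 4 markers given with the comparison, the 15 highest and 15 lowest called genes whose arrays do not overlap, up to 4 called members per list and, among genes called between siEED+RNF2 and siEED, up to 5 with the largest interaction in each direction. Small nucleolar, micro and uncharacterized RNAs were named only in their own lists. Other genes given with values, such as uncalled members of a list, were chosen after their values were seen. Alternatives covered the samples fitted, the replicate block, the moderation of variance, scaling, dim genes, clusters per gene, thresholds and leaving out each array.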

Additional observations from a re-analysis of the deposited data

Results flagged for a closer look

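The effect of the RNF2 pool was tested for a difference between cells with and without the EED pool, as siEED+RNF2 minus siEED less siRNF2 minus siNTC. In limma the difference was called for 1369 genes with a negative and 717 with a positive value. Named genes were mostly chosen by siEED+RNF2 minus siEED, which is part of this value, so negative values among lower genes are partly built in. Among the genes chosen by the naming rule, those of chromosome segregation with a negative value were ESCO1 (-1.30), SMC6 (-0.92), CENPC (-0.88), SMC3 (-0.87), SMC2 (-0.63), HMMR (-0.76), HAUS6 (-0.87) and KIF15 (-0.82). At the centrosome and in the cytoskeleton they were CEP135 (-1.16), CCDC18 (-0.97), CEP162 (-0.85), ROCK1 (-0.81), ROCK2 (-0.75) and SASS6 (-0.66), and at membranes TMF1 (-0.92) and KTN1 (-0.88). Genes of DNA repair, replication and chromatin were LIG4 (-1.11), RAD50 (-0.99), CHD1 (-0.96), PSIP1 (-0.67) and RFC1 (-0.59), the zinc finger genes were ZNF678 (-1.31), ZBTB41 (-1.18) and ZNF675 (-0.96), and N4BP2 (-1.40), NEMF (-0.80) and TEX15 (-0.81) stood apart from these groups.

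Genes that siRNF2 changed strongly against siNTC gave CLGN (-3.72), GDF15 (-3.46), RASSF4 (-2.71), ZC3H6 (-2.44), GREB1L (-2.19) and ITGA5 (-1.16) as negative values and 1.91 for ACTG2. Positive values among small RNAs were SNORA80E (1.45), SNORA65 (1.40), SNORD82 (0.94), RNU4-2 (0.93) and SNORD32A (0.67). Of these, SNORD82 and SNORD32A were not called between siEED+RNF2 and siEED without siEED replicate 1.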

How the results depend on the processing

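The 507 lower and 29 higher genes kept similar numbers with the 2 groups fitted alone (507 and 34), no moderation of the variance (498 and 20), a variance trend (504 and 25), quantile normalization (478 and 33), centring on the gene median (504 and 29) or on the cluster median (480 and 32), the 30% dimmest genes left out (505 and 31), the mean of the clusters (500 and 29) and an adjusted p under 0.01 (503 and 23). Leaving out 1 array gave 466 to 548 lower genes and 17 (without siEED replicate 1) to 55 (without siEED replicate 2) higher genes. With every transcript cluster tested, 770 were lower and 73 higher. Without a fold threshold 1605 were lower and 925 higher, and at a fold of at least 2, 98 and 4. The interaction was negative for 876 and positive for 1381 genes after centring on the gene median, positive for 1401 with every cluster, 2947 and 2667 without a fold threshold and 340 and 116 at a fold of at least 2. That centring kept 35 of 39 called interactions of named genes and lost those of SMC2, SASS6, RFC1 and PSIP1. Leaving out 1 array gave 1265 to 1493 negative and 709 to 790 positive interactions. Genes lower in both comparisons, 94 as deposited, numbered 142 with that centring, 182 with every cluster, 695 without a fold threshold, 13 at a fold of at least 2 and 81 to 122 with 1 array left out, and genes higher in both, 15 as deposited, numbered 26, 486, 2 and 10 to 22 in the last 4 of these settings.

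Among lists, quantile normalization left 68 zinc finger, 20 centrosome and 11 tether genes lower and every other count within 1. All 81 named genes kept their call with the replicate block, which gave 507 lower and 30 higher genes. The labels do not say whether replicate numbers mark a pairing. Deviations of same-numbered arrays correlated at 0.02 for the 2 groups and at -0.11 to 0.16 over the 15 pairs of groups. With 2 arrays per group these values cannot decide it. Without siEED replicate 1 the calls of MVB12A, GDF15, GAL, IGLON5, PSIP1, SNORD82, SNORD105, SNORD41, SNORD32A, SNORA20 and SNORA49 were lost. The cause was not tested for any of these changes beyond what each setting leaves out. With 2 arrays per group, and 1 where an array was left out and taken to vary like the others, small differences are beyond what these data can show.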
